A study of Homo sapiens with 3 samples.

Results

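The genes described here are 46 androgen-responsive and prostate lineage genes, chosen by name as a module of known targets and markers, and every row of the annotated MEIS1 peak lists that carried 1 of these names was taken. A peak in the LV-MEIS1 line was annotated to 25 of the 46 genes, and a peak in the HOXB13ko-LV-MEIS1 line to 6. In all, 52 of the 5968 LV-MEIS1 peaks and 6 of the 2047 HOXB13ko-LV-MEIS1 peaks belonged to them. KLK3, MAF, INPP4B, ACSL3 and KRT8 had a peak in both lines, PIAS1 had a peak in HOXB13ko-LV-MEIS1 cells alone, and 20 genes had peaks in LV-MEIS1 cells alone. The other 20, among them KLK4, PSCA, STEAP1, TRPM8 and KRT19, had no annotated peak.

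The study measured where MEIS1, a homeodomain protein of the TALE class, occupies chromatin in prostate carcinoma cells with and without HOXB13. Both lines derive from CWR22Rv1, an established human prostate carcinoma line that came from a xenograft which relapsed after castration of the host, and were grown in RPMI medium with fetal bovine serum and puromycin. LV-MEIS1 cells carried MEIS1 on a lentiviral vector and kept their endogenous HOXB13. HOXB13ko-LV-MEIS1 cells carried the same vector after CRISPR/Cas9 knockout of HOXB13, and were a pool of re-combined knockout clones that had also been selected for stable Cas9 expression. MEIS1 was immunoprecipitated 3 times from LV-MEIS1 cells and 2 times from HOXB13ko-LV-MEIS1 cells. The authors pooled these per line and called peaks at a q-value of 0.01 against 1 input DNA library. Each line therefore had 1 peak list and no replicate error, so no test between the lines was possible and every comparison below is a description of these lists. The pools held 202428594 and 105763683 tags, and the input 39102495. Genotype, depth and the number of immunoprecipitations differed together between the lists and cannot be told apart. Peaks do not measure expression, so the labelled cell line was not checked against marker genes.

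Androgens act through the androgen receptor, a nuclear receptor that binds palindromic DNA elements, mostly in enhancers away from promoters, and switches on the secretory programme of luminal prostate cells. That programme includes kallikreins such as prostate-specific antigen, membrane proteins, lipid and sugar enzymes, and coregulators that feed back on the receptor. HOXB13, a homeobox factor of the prostate epithelium, binds near the receptor at many such sites, as do forkhead factors. MEIS proteins recognise the word TGACA and often bind beside a PBX or HOX partner.

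The windows of 101 bases centred on the LV-MEIS1 summits of the genes that kept a peak without HOXB13 are shown first, because these LV-MEIS1 peaks overlapped a HOXB13ko-LV-MEIS1 peak. The KRT8 window lies in the part of its peak outside that overlap. They are given on the plus strand of hg38, with capitals on either strand's copy of TGACA, of ATAAA (the core of the HOXB13 site), of AGAACA (one arm of the palindromic androgen response element) and of TGTTTAC (a forkhead word).
KLK3, chr19:50850828-50850928: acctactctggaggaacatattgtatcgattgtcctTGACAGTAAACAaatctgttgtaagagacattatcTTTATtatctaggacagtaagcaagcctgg
MAF, chr16:79600836-79600936: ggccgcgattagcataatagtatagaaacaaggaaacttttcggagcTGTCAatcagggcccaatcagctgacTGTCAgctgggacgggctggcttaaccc
INPP4B, chr4:142697473-142697573: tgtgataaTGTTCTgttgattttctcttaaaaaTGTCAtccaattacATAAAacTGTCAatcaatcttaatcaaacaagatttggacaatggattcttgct
ACSL3, chr2:222796865-222796965: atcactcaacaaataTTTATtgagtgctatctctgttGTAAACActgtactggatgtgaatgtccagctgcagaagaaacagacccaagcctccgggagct
KRT8, chr12:52970150-52970250: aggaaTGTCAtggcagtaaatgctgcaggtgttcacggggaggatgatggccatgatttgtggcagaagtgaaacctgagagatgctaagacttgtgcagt

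In the LV-MEIS1 list, 54.3% of the genes (25 of 46, Wilson 95% interval 40.2 to 67.8%) had an annotated peak, compared with 15.1% of all 20056 protein-coding genes. In the HOXB13ko-LV-MEIS1 list the share was 13.0% (6 of 46, interval 6.12 to 25.7%), compared with 5.79% of protein-coding genes. The intervals cover counting error only, and neighbouring genes such as KLK2 and KLK3 are not independent. When peaks were limited to 10 kb from the start site, 10 genes (21.7%) against 8.45% of protein-coding genes had one in LV-MEIS1 cells, and 3 genes (6.52%) against 3.39% in HOXB13ko-LV-MEIS1 cells. Cutting the longer list to its 2047 best peaks by q-value, the length of the other, left 16 of the genes (34.8%) with an LV-MEIS1 peak beside 5.84% of protein-coding genes. Counting any peak within 50 kb of the gene body, whatever gene name it carried, gave 29 genes (63.0%) beside 33.8% of protein-coding genes in LV-MEIS1 cells, and 9 genes (19.6%) beside 16.2% in HOXB13ko-LV-MEIS1 cells. By that last rule the share of these genes in HOXB13ko-LV-MEIS1 cells was close to that of all genes.

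**Figure D1:**
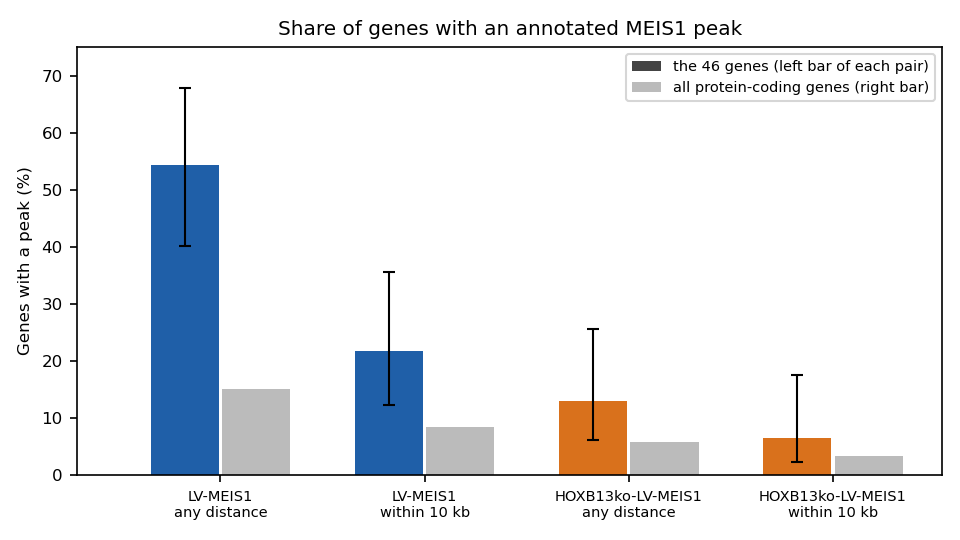
Percentage of genes with an annotated MEIS1 peak in each line, at any distance and within 10 kb of the start site; coloured bars are the 46 genes with Wilson 95% intervals, and grey bars are all protein-coding genes. The tallest bar, 54.3% for LV-MEIS1 cells at any distance, stands beside 15.1%, and the bars of HOXB13ko-LV-MEIS1 cells are lower for both sets of genes.

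Of the 25 genes with an LV-MEIS1 peak, 5 (20.0%) also had a HOXB13ko-LV-MEIS1 peak, beside 16.4% of all gene names in the LV-MEIS1 list. Seen from the other list, those 5 were 83.3% of the 6 genes with a HOXB13ko-LV-MEIS1 peak, beside 42.1% of all names there. Peak by peak, 5 of 52 (9.62%) overlapped a HOXB13ko-LV-MEIS1 peak by at least 1 bp, beside 7.66% of all LV-MEIS1 peaks, and 5 of 6 overlapped in the other direction, beside 22.3%. The share of LV-MEIS1 peaks that overlapped was thus close to that of the whole list. The 5 overlapping LV-MEIS1 peaks were strong in their own list. Fold enrichment is the ratio of the summit pileup to the local background, after adding 1 to each. In these peaks it ran from 9.03 to 11.8 with a median of 10.2, which placed them at the 85.3rd to 96.1st percentile. The 47 other peaks ran from 3.51 to 15.3 with a median of 6.41. All overlapping LV-MEIS1 peaks of the list were not compared in this way, so the strength is not shown to be particular to these genes. In the HOXB13ko-LV-MEIS1 list the counterparts ran from 4.84 to 6.75, at the 27.0th to 68.9th percentile.

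**Figure D2:**
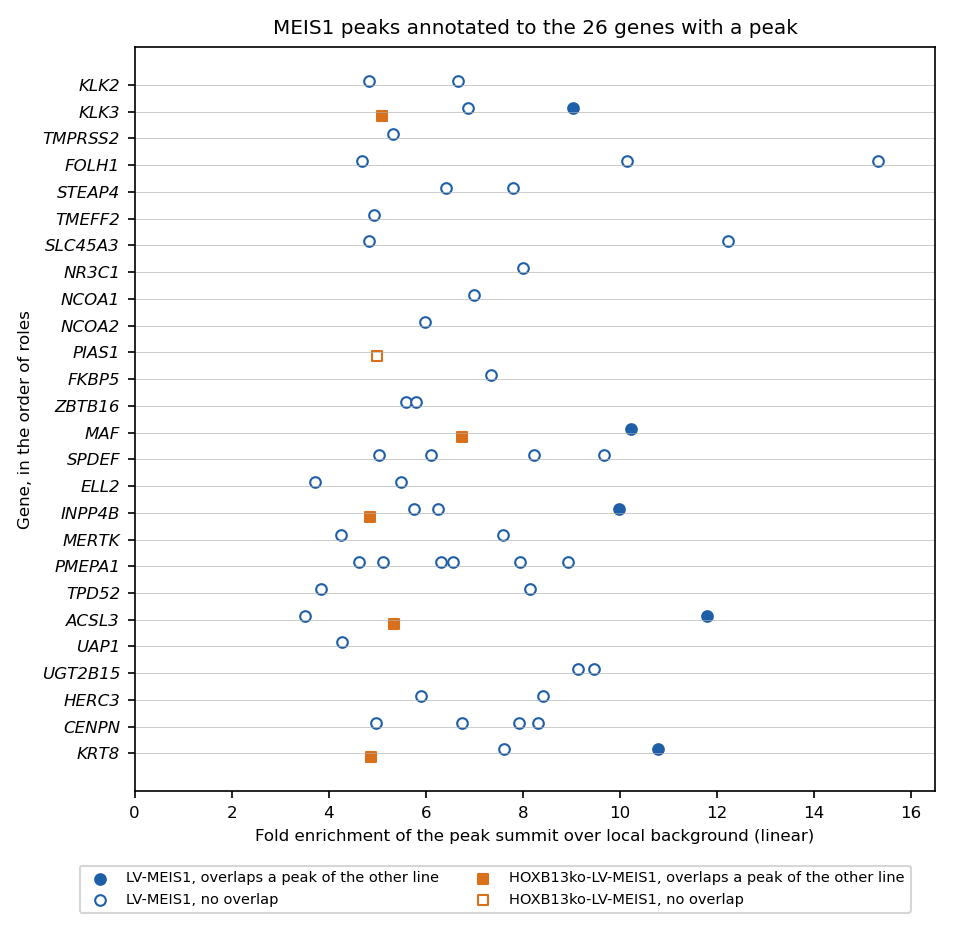
Fold enrichment (linear axis) of every annotated peak of the 26 genes with a peak, 1 row a gene; circles are LV-MEIS1 peaks, squares are HOXB13ko-LV-MEIS1 peaks, and filled marks overlap a peak of the other line. Filled circles lie between 9.03 and 11.8, while 3 open circles, 2 at FOLH1 and 1 at SLC45A3, lie above 10 with no counterpart.

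Among the 4 secreted prostate proteins, 2 had LV-MEIS1 peaks and 1 a HOXB13ko-LV-MEIS1 peak, beside 15.1% and 5.79% of all protein-coding genes. With so few genes, a count of 1 is near the latter share. The genes with LV-MEIS1 peaks were KLK3, which encodes prostate-specific antigen, and KLK2, which encodes a closely related protease. KLK3 had 2, at chr19:50850676-50851099, 4037 bp upstream of the gene with a fold enrichment of 9.03, and at chr19:50851629-50851962, 3115 bp upstream, with 6.87. In HOXB13ko-LV-MEIS1 cells 1 peak remained there, at chr19:50850853-50851079 with a fold enrichment of 5.10. It lay wholly inside the first LV-MEIS1 peak, but its summit was shifted by 136 bp towards the gene. The LV-MEIS1 summit and the HOXB13ko-LV-MEIS1 summit each lay near a separate copy of TGACA, shown here in capitals with 12 bases on either side to make the shift visible.
KLK3 word nearest the LV-MEIS1 summit, chr19:50850852-50850880, plus strand: atcgattgtcctTGACAgtaaacaaatct
KLK3 word nearest the HOXB13ko-LV-MEIS1 summit, chr19:50851028-50851056, plus strand: cacacagatacgTGACAgaaccatggaga

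The first of these words was 12 bp from its summit and ran directly into a forkhead word, and the second was 28 bp from its summit. KLK2 had an LV-MEIS1 peak 3779 bp upstream at chr19:50869513-50869774, with a fold enrichment of 6.65, and a promoter peak 178 bp upstream at chr19:50873124-50873405, with 4.84. Neither had a counterpart in HOXB13ko-LV-MEIS1 cells. The upstream peaks of the paired genes were annotated to the same kind of repeat, LTR40a, and were copies of each other: 242 of 292 aligned bases (82.9%) were identical in windows of 301 bases, and their LV-MEIS1 summits fell within 1 base of each other in the alignment. The TGACA of the KLK3 copy was not kept in the KLK2 copy, where the aligned bases read GAACA, with substitutions T1G and G2A counted from 1 at the first base of the word. The forkhead word next to it was present in both copies, as the KLK2 window shows.
KLK2, chr19:50869604-50869704: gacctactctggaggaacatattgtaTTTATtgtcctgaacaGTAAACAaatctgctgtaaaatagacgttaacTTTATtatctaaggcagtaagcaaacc

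Reads from such copies can be assigned to either where they are identical, so the split of signal between the KLK2 and KLK3 copies is uncertain to that extent. KLK4, another kallikrein, had no annotated peak, and its nearest LV-MEIS1 peak was 16408 bp from the gene. ACPP, which encodes prostatic acid phosphatase, had none either, and the nearest lay 49531 bp away beside DNAJC13.

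**Figure D3:**
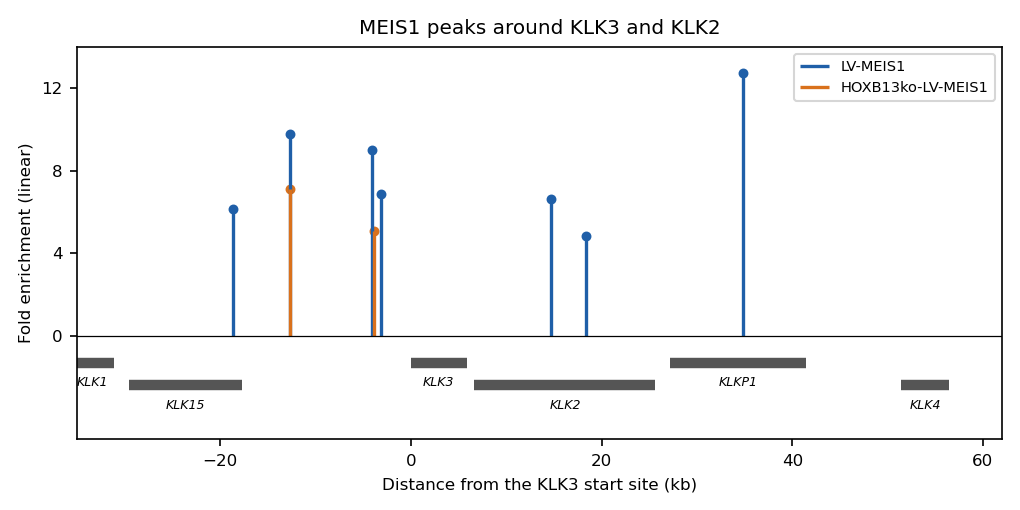
MEIS1 peaks around KLK3 and KLK2, placed by the distance of the summit from the KLK3 start site in kb (x axis) with the height giving fold enrichment on a linear scale; grey bars are gene bodies. Of the 7 LV-MEIS1 peaks drawn, those 4.04 kb and 12.7 kb before KLK3 have a HOXB13ko-LV-MEIS1 peak beside them.

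Of the 10 surface and membrane proteins, 5 had LV-MEIS1 peaks, beside 15.1% of all protein-coding genes. A HOXB13ko-LV-MEIS1 peak was annotated to 0, a count near what 5.79% of all protein-coding genes gives among so few. FOLH1, which encodes prostate-specific membrane antigen, had 3 LV-MEIS1 peaks. The peak at chr11:49283266-49283711, 74814 bp upstream, reached a fold enrichment of 15.3, the highest of all 52 and at the 99.5th percentile of the list. A second, in intron 2 at chr11:49196068-49196411, reached 10.1, and the last, in intron 12, reached 4.68. The nearest HOXB13ko-LV-MEIS1 peak lay 1565961 bp from the gene. SLC45A3, which encodes the prostate antigen prostein, had peaks 18647 bp and 22774 bp upstream, with fold enrichments of 12.2 and 4.83. The windows at the leading peaks of these genes are shown because they were the strongest without a HOXB13ko-LV-MEIS1 counterpart, and each held both TGACA and ATAAA within 50 bp of the summit.
FOLH1 upstream, chr11:49283434-49283534: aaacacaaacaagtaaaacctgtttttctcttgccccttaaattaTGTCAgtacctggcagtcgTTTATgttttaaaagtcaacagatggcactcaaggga
FOLH1 intron 2, chr11:49196182-49196282: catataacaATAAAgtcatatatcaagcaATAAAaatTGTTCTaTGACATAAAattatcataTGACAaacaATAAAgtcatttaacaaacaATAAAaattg
SLC45A3, chr1:205699099-205699199: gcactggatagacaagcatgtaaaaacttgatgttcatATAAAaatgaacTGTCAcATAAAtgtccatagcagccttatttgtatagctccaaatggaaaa

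The other surface proteins had weaker peaks. STEAP4, a metalloreductase, had 2 intergenic peaks 84500 and 85950 bp upstream with fold enrichments of 7.80 and 6.41. TMPRSS2, a membrane serine protease whose promoter drives ETS fusions in many prostate tumours, had 1 peak 18322 bp upstream of the annotated start site at chr21:41526374-41526587, with 5.32. TMEFF2, a transmembrane protein, had 1 peak 194459 bp upstream with 4.93. PSCA, STEAP1, STEAP2, TRPM8 and ABCC4 had no annotated peak. ABCC4, an efflux transporter, did hold an LV-MEIS1 peak with a fold enrichment of 7.16 inside its gene body, which was annotated to LINC00557. PSCA, a prostate stem cell antigen, was the reverse: 2 HOXB13ko-LV-MEIS1 peaks lay 24493 and 27521 bp from the gene under the names of its neighbours, and the nearest LV-MEIS1 peak was 373071 bp away.

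The nuclear receptor, coregulators and transcription regulators were the role with the most genes with a peak, 8 of 10 in LV-MEIS1 cells and 2 of 10 in HOXB13ko-LV-MEIS1 cells. The shares of all protein-coding genes were 15.1% and 5.79%. The roles are small groups, chosen with earlier results of these data known. MAF, a basic leucine zipper factor, had a promoter peak 161 bp upstream in both lists, at chr16:79600746-79601045 and chr16:79600779-79601040. Both summits fell on the same base, and the fold enrichments were 10.2 and 6.75, at the 91.5th and 68.9th percentiles. PIAS1, a SUMO ligase that modulates steroid receptors, had a promoter peak in HOXB13ko-LV-MEIS1 cells, 138 bp upstream at chr15:68053965-68054177, with a fold enrichment of 5.00, and the nearest LV-MEIS1 peak was 138388 bp from the gene. The PIAS1 summit window held 0 of the 4 words searched.

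NR3C1, NCOA1, NCOA2 and FKBP5 had LV-MEIS1 peaks. NR3C1, the glucocorticoid receptor, had a peak in intron 1 at the 77.2nd percentile of fold enrichment. NCOA1 and NCOA2, coactivators of steroid receptors, had a peak each with 6.99 and 5.99. FKBP5, a co-chaperone of steroid receptors and a classic androgen target, had a peak 1559 bp downstream of its start site with 7.35, and 2 more peaks inside its gene body, with 6.50 and 5.91, were annotated to MIR5690. None of these 4 genes had a HOXB13ko-LV-MEIS1 peak, a count near what 5.79% of all protein-coding genes gives among so few.

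SPDEF, an ETS factor of luminal epithelium, had 4 LV-MEIS1 peaks, a number reached by 4.04% of gene names in that list. The strongest, 19542 bp downstream of the annotated start site at chr6:34536604-34537006, had a fold enrichment of 9.67, and the others, 5.03 to 8.24, lay in introns of the neighbouring ILRUN. ELL2, an elongation factor, had 2 peaks with 5.48 and 3.71 in an intron of LOC101929710, and another LV-MEIS1 peak, with 3.15, overlapped the start of the ELL2 gene under the name of LOC101929710. EAF2, the partner of ELL2, had no annotated peak, the nearest LV-MEIS1 peak lying 29832 bp from the gene. ZBTB16, a zinc finger repressor, had 2 annotated peaks in intron 3 with 5.58 and 5.80. Another, stronger LV-MEIS1 peak inside the ZBTB16 gene, with a fold enrichment of 13.2, was annotated to NNMT and had a HOXB13ko-LV-MEIS1 counterpart with 7.37. Counted by gene body, ZBTB16 was therefore bound in both lines.

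Of the 7 signalling and stress genes, 4 had LV-MEIS1 peaks and 1 a HOXB13ko-LV-MEIS1 peak, beside 15.1% and 5.79% of all protein-coding genes. A count of 1 among so few genes is near the latter share. INPP4B, a phosphoinositide phosphatase, had 3 peaks in intron 2, from 149012 to 250977 bp downstream of the start site. The peak at chr4:142697287-142697717, with a fold enrichment of 9.99, had a counterpart at chr4:142697412-142697629 with 4.84 and a summit 20 bp away. The other INPP4B peaks, with 5.76 and 6.26, had none. PMEPA1, a membrane protein that dampens TGF-beta signalling, had 6 peaks, the most of any of these genes and a number reached by 1.03% of gene names. All 6 were intergenic, between 26626 and 61834 bp upstream, with fold enrichments from 4.62 to 8.93, and 4 of them fell in DNA or LINE repeats. The nearest HOXB13ko-LV-MEIS1 peak was 939529 bp from PMEPA1.

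MERTK, a receptor tyrosine kinase, had 2 peaks in intron 3 with fold enrichments of 4.26 and 7.59. TPD52, a tumour-associated protein of vesicle traffic, had peaks with 8.15 and 3.83. SGK1, CAMKK2 and NDRG1 had no annotated peak. The nearest LV-MEIS1 peak to CAMKK2, a kinase of energy metabolism, was 10094 bp from the gene, in an intron annotated to P2RX4.

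Of the 9 metabolic enzymes, 3 had LV-MEIS1 peaks and 1 a HOXB13ko-LV-MEIS1 peak, beside 15.1% and 5.79% of all protein-coding genes. Again, 1 among so few genes is near the latter share. ACSL3, which activates long-chain fatty acids, had LV-MEIS1 peaks 64099 and 64748 bp upstream with fold enrichments of 11.8 and 3.51, the second the lowest of all 52. The stronger, at chr2:222796664-222797164, had a counterpart at chr2:222796795-222797068 with 5.33 and a summit 3 bp away, and its window held ATAAA and the forkhead word but no TGACA. UAP1, which makes the sugar nucleotide for glycosylation, had a peak in intron 3 with 4.27. UGT2B15, which conjugates androgens to glucuronic acid, had a promoter peak with 9.47 at chr4:68670481-68670956 and a second with 9.13 on an alternate contig. The windows around the latter summits were identical over all 261 aligned bases, so the promoter of UGT2B15 was counted on 2 copies of the same sequence. HMGCS1, ALDH1A3, GNMT, SORD, HPGD and UGT2B17 had no annotated peak, and the nearest to GNMT was an LV-MEIS1 peak 50000 bp away at the promoter of MEA1. UGT2B17 is a close paralogue of UGT2B15, and reads shared between them could have been placed on either.

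Of the 3 remaining androgen-responsive genes, 2 had LV-MEIS1 peaks and 0 a HOXB13ko-LV-MEIS1 peak, beside 15.1% and 5.79% of all protein-coding genes. With so few genes, a count of 0 is near the latter share. CENPN, a centromere protein, had 4 LV-MEIS1 peaks, a number reached by 4.04% of gene names in that list. They had fold enrichments from 4.97 to 8.31, with 1 at the CENPN promoter and 3 in introns of the neighbouring CMC2. HERC3, a ubiquitin ligase, had a peak 3869 bp upstream with 5.89 and a peak in intron 3 with 8.41, and NCAPD3, a condensin subunit, had none. Among the 3 luminal keratins, only KRT8 had peaks, in both lines, and a count of 1 among so few genes is near the same shares. KRT8 had an LV-MEIS1 promoter peak 88 bp upstream with 7.60, and a peak 20334 bp upstream at chr12:52969770-52970436 with 10.8. The promoter peak had no counterpart, while the distal peak overlapped a HOXB13ko-LV-MEIS1 peak at chr12:52969829-52970046 with 4.87. Here too the summits differed, by 280 bp, and each had its own copy of TGACA, 43 bp from the LV-MEIS1 summit and 4 bp from the other. KRT18, the partner of KRT8 in the same locus, had no annotated peak, but the distal peak lay 16864 bp from its gene. KRT19 had none.
KRT8 word nearest the LV-MEIS1 summit, chr12:52970143-52970171, minus strand: catttactgccaTGACAttccttggcttt
KRT8 word nearest the HOXB13ko-LV-MEIS1 summit, chr12:52969902-52969930, minus strand: agcattcctaaaTGACAgggagatttata

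**Figure D4:**
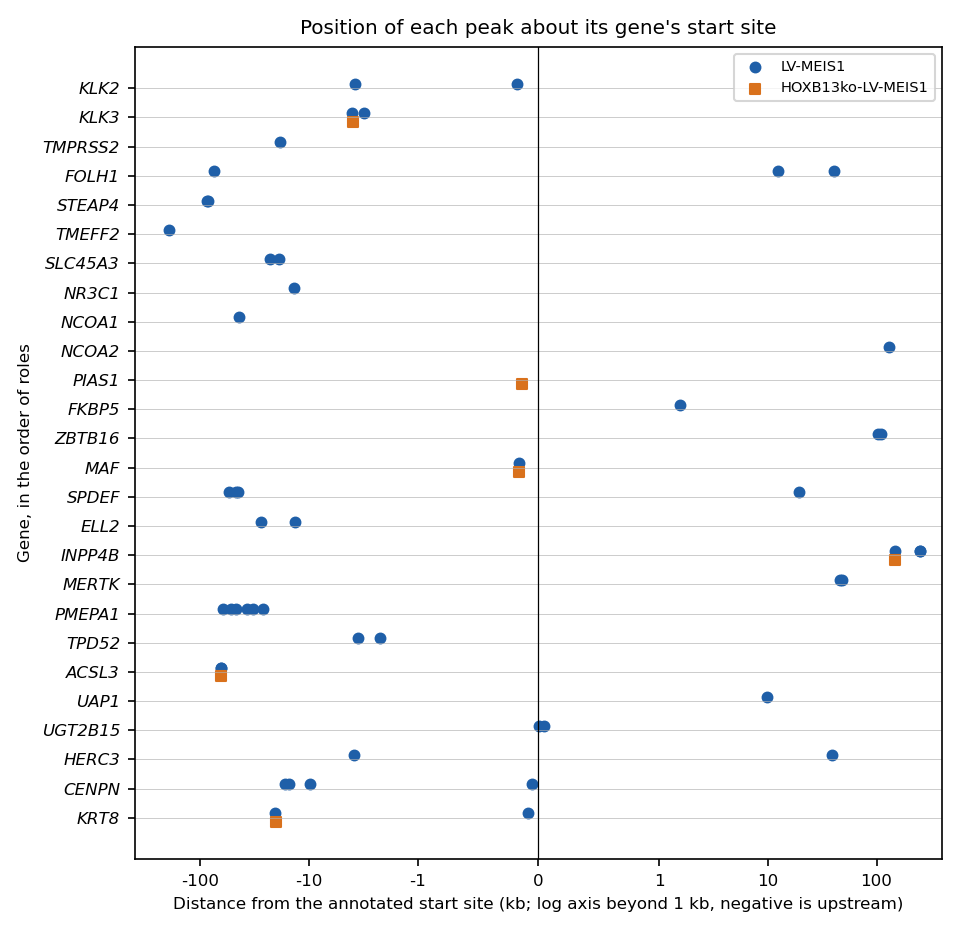
Distance of every annotated peak from the start site of its gene in kb (log axis beyond 1 kb, negative values upstream), 1 row a gene; circles are LV-MEIS1 peaks and squares are HOXB13ko-LV-MEIS1 peaks. Of the 52 circles, 36 lie left of 0, and the squares lie beside circles except at PIAS1.

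Over all 52 LV-MEIS1 peaks, 23 (44.2%) were intronic, 21 (40.4%) intergenic and 6 (11.5%) at promoters, with 1 in a non-coding exon and 1 at a transcript end. Across the whole list these classes held 38.0%, 37.0% and 20.2% of peaks. Of the 23 intronic peaks, 14 lay in the annotated gene itself and 9 in a neighbour. Of the 52 peaks, 36 (69.2%) lay upstream of the annotated start site, beside 47.5% of all LV-MEIS1 peaks, and 13 (25.0%) lay in an annotated repeat, beside 19.5%. Upstream here refers to the start site used by the annotation. Some of these peaks, as at KLK2, TMPRSS2, NCOA1, NR3C1, HERC3 and TPD52, lay inside the longer GENCODE gene body. The median distance to the start site was 27189 bp (95% interval from order statistics 15349 to 46284 bp) beside 23121 bp for all peaks of the list, a difference inside the interval. The 6 HOXB13ko-LV-MEIS1 peaks comprised 2 promoter, 2 intergenic, 1 intronic and 1 non-coding exon peak, at a median of 11978 bp, beside 10517 bp for that list. With 6 peaks the interval of this median spanned 138 to 148992 bp, so no difference from the list was detectable.

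The words at the summits of the 52 LV-MEIS1 peaks had wide intervals, and the share of the list lay inside the interval for the MEIS and forkhead words and outside it for the HOXB13 core and the response element arm. These intervals treat the 52 peaks as independent, which they are not. They came from 25 genes, with 6 at PMEPA1, 4 each at SPDEF and CENPN, and 2 copies of the UGT2B15 promoter. The intervals are therefore too narrow for a test and serve as a description. TGACA was found within 50 bp of the summit in 23 of 52 (44.2%, interval 31.6 to 57.7%), beside 56.1% of all LV-MEIS1 peaks, and in 15.4% and 18.9% of the flanking windows of the 52 peaks and of the list. ATAAA was found in 33 (63.5%, interval 49.9 to 75.2%) beside 45.8%, with 32.7% and 32.9% in the flanks. Only 11.2% of all LV-MEIS1 promoter peaks held ATAAA, and promoters were 11.5% of the 52 peaks beside 20.2% of the list. The part of this difference in class was not tested. AGAACA was found in 10 (19.2%, interval 10.8 to 31.9%) beside 9.22%, with 3.85% and 7.35% in the flanks. TGTTTAC was found in 8 (15.4%, interval 8.01 to 27.5%) beside 8.71%, with 3.85% and 1.69% in the flanks. Both TGACA and ATAAA were present in 15 peaks (28.8%) beside 24.2% of the list, and neither in 11 (21.2%) beside 22.3%. Of the 6 promoter peaks, 1, at MAF, held TGACA, beside 55.2% of all LV-MEIS1 promoter peaks.

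**Figure D5:**
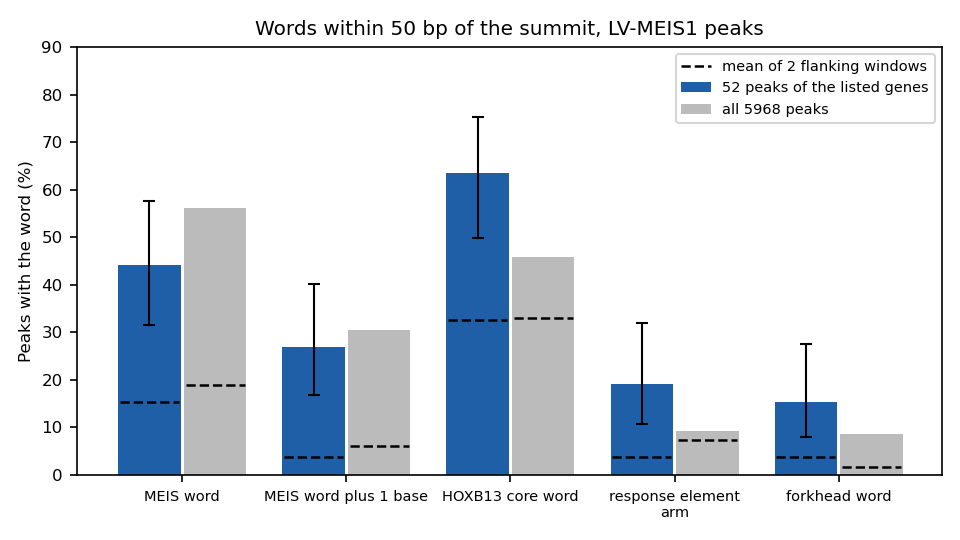
Percentage of LV-MEIS1 peaks with each word within 50 bp of the summit, for the 52 peaks of the listed genes (blue, with Wilson 95% intervals) and all 5968 peaks (grey); dashed lines are the mean of the 2 flanking windows of the same peaks. The blue bar is below the grey bar for the MEIS word (44.2 and 56.1%) and above it for the HOXB13 core (63.5 and 45.8%), the response element arm (19.2 and 9.22%) and the forkhead word (15.4 and 8.71%).

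In the HOXB13ko-LV-MEIS1 list, 4 of the 6 peaks (KLK3, MAF, INPP4B and KRT8) held TGACA, and in all 4 it was followed by G, beside 16.8% of that list with TGACA and 7.82% with TGACAG. Of the 6, 5 overlapped an LV-MEIS1 peak. At the LV-MEIS1 summits of those 5, 4 held TGACA and 3 held TGACAG. Among all overlapping LV-MEIS1 peaks the shares were 53.6% and 33.7%. At MAF and INPP4B, TGACA was directly preceded by TGAT, which makes it the site of a PBX and MEIS pair, as the windows above show on the opposite strand. That longer word was present in 3 of 52 LV-MEIS1 peaks, at INPP4B, MAF and TPD52, beside 0.788% of the list, and in 2 of 6 HOXB13ko-LV-MEIS1 peaks beside 0.342% of that list and 1.54% of its 456 peaks that overlapped an LV-MEIS1 peak, since 5 of the 6 were such peaks. TGACA followed after 2 bases by TTTAT, a joined MEIS and HOX arrangement, was found at 2 LV-MEIS1 peaks (3.85%, INPP4B and CENPN) beside 0.922% of the list. In the HOXB13ko-LV-MEIS1 list it was found at 1 of the 6 peaks, at INPP4B, beside 0.147% of that list. These letters do not identify which HOX protein, if any, was bound. The INPP4B site thus carried both arrangements in both lists.

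Palindromic androgen response elements were searched as AGAACA, 3 bases of any kind and TGTTCT, with at most 3 mismatches in the 12 bases of its arms. They were found within 50 bp of the summit in 10 of the 52 LV-MEIS1 peaks (19.2%) beside 7.37% of all LV-MEIS1 peaks, with 4.81% and 5.99% in the flanks, and in 0 of the 6 HOXB13ko-LV-MEIS1 peaks beside 2.69%. None of the 52 matched with 0 or 1 mismatches, beside 0.302% of the LV-MEIS1 list, and the closest match, with 2, was at the weaker ELL2 peak, 27752 bp upstream. The elements of ELL2, FOLH1 and KLK2 are shown with matching bases in capitals. The KLK3 copy of the KLK2 element, in the KLK3 window above, differs from it in the last base. It fell outside the limit of 3 mismatches and was not counted. A match to the element is a resemblance of letters and no measurement of receptor binding.
ELL2 upstream, chr5:95989835-95989849: AGAACAgaaaGTcCT
FOLH1 intron 2, chr11:49196210-49196224: AatAaAaatTGTTCT
KLK2 upstream, chr19:50869617-50869631: gGAACAtatTGTatT

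A separate list of 70 other androgen-responsive genes was counted in the same way. LV-MEIS1 peaks were annotated to 24 of the 70 (34.3%), beside 15.1% of all protein-coding genes. HOXB13ko-LV-MEIS1 peaks were annotated to 5 (7.14%), near the 5.79% of all protein-coding genes, and 45 had neither. The higher share in LV-MEIS1 cells was thus also seen among all protein-coding genes. ABHD2, CCND1, GPD1L and GSR had peaks in both lines. ABHD2, a lipase, had an intronic peak 41731 bp from its start site, where fold enrichment was 9.05 in LV-MEIS1 cells and 7.96 in HOXB13ko-LV-MEIS1 cells. GPD1L, a glycerol phosphate dehydrogenase, reached 13.5 and 6.14. CCND1, the cell cycle regulator cyclin D1, had an LV-MEIS1 peak with 7.15, 13605 bp from its start site, and 2 HOXB13ko-LV-MEIS1 peaks, of which 1 overlapped it, while the stronger, with 5.38, lay at 5793 bp. GSR, glutathione reductase, had 5.18 and 4.45 at peaks that did not overlap. The other genes among the 5 with the strongest LV-MEIS1 peaks were PTK2B, a relative of focal adhesion kinase, with 16.4, IQGAP2, a scaffold protein, with 13.7, BMPR1B, a BMP receptor, with 12.9, and MAP7, a microtubule protein, with 10.3.

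Of 17 genes for factors that act with the androgen receptor, 5 had LV-MEIS1 peaks and 0 had a HOXB13ko-LV-MEIS1 peak, beside the 15.1% and 5.79% of all protein-coding genes, at which a count of 0 among so few genes is near the background. FOXA1, the main forkhead factor of the prostate, had 6 peaks with a highest fold enrichment of 10.9. ETV1, an ETS factor, had 5 peaks, the strongest with 7.58 in its 5' UTR. HOXB13 itself had a promoter peak 429 bp from its start site with 4.61, and MED1, a Mediator subunit, a promoter peak with 3.90. GATA2, GRHL2, NCOA3 and EP300 were among the 12 without a peak in either list.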

How the data were processed

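MEIS1 ChIP-seq of LV-MEIS1 and HOXB13ko-LV-MEIS1 cells was analysed from 1 peak list and 1 annotation per line. The LV-MEIS1 list used holds fewer peaks than the study reports for that line. Per the submitters' processing notes and the study's methods, the authors trimmed 50 bp reads (Trimmomatic 0.38), removed duplicates (Picard 2.18.10), aligned to hg38 with Bowtie2, pooled immunoprecipitations, called peaks with MACS2 2.1.2 against 1 input, and annotated them with HOMER 4.9.1. The deposited signal is the summit pileup after scaling to the input, and the authors' fold enrichment divides it by the local background, after adding 1 to each. The authors' q-value is given as a −log10 value, and other deposited values are base pairs from summit to start site. The names of a pair of columns in the peak lists were damaged, and the −log10 q-value was therefore taken from the annotation, where it equalled the ninth column for every peak. Fold enrichment was ranked within a list, since depth differed between the lists.

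The genes, roles and other lists were chosen with earlier results of these data known, and the lists were written from memory. Every gene with a peak was named, with the nearest peak of the others where it lay within 50 kb. Of the further lists, genes with peaks in both lines and, per line, the 5 with the highest fold enrichment were named (a few genes of these lists are counted but not reported here by name). Shares of protein-coding genes used RefSeq names, and gene bodies came from GENCODE release 44. Sequences were read from hg38, which has the contigs of the files. The response element and the joined PBX and MEIS word were chosen after seeing the sequences. Words were searched on both strands, and flanks lay 450 to 550 bp either side. Overlap needed 1 bp. The overlap, word search and intervals were tested on simulated data. Alternatives were stricter q-value and fold enrichment, equal list length, limits of distance, other overlap, other words, and chromosomes 1 to 22, X and Y only. Computations used Python 3.11.15, pandas 2.3.3, SciPy 1.17.1, pysam 0.24.0 and Biopython 1.88.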

Additional observations from a re-analysis of the deposited data

How the results depend on the processing

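Of 55 values recomputed under alternatives, 43 stayed within 1.5 times the reported count or within the interval of the reported share or median, and 12 moved. In LV-MEIS1 cells the number of genes with a peak fell from 25 to 16 when the list was cut to the length of the other, and to 10 within 10 kb of the start site, both with fewer peaks by construction. In HOXB13ko-LV-MEIS1 cells it fell from 6 to 3 within 10 kb. Genes with peaks in both lines went from 5 to 3 at a fold enrichment of at least 5 and to 2 within 10 kb. Peaks shared between the lines went from 5 to 3 in both lists when summits had to lie within 100 bp, because the KLK3 and KRT8 summits were 136 and 280 bp apart. The median distance of LV-MEIS1 peaks was 13700 bp with the nearest peak of each gene, beside 10720.5 bp over all names of the list. The share of peaks with TGACA rose to 65.4% (LV-MEIS1) and 100% (HOXB13ko-LV-MEIS1) within 100 bp of the summit, beside 69.0% and 25.8% of the lists, and was 26.9% for TGACAG in LV-MEIS1 cells. Of the 6 HOXB13ko-LV-MEIS1 peaks, 5 overlapped an LV-MEIS1 peak, beside 22.3% of that list. The 100% was not compared with overlapping peaks alone. The response element share was 1.92% with at most 2 mismatches, beside 1.41% of the list, so the larger share rests on matches with 3. The restriction to chromosomes 1 to 22, X and Y and the mismatch limit were added after seeing the data. No paired analysis was possible because each line has 1 pooled peak list. The HOXB13ko-LV-MEIS1 pool was less deeply sequenced, the part of depth in the missing peaks was not tested, and a missing peak is not shown to be absent binding.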

Other observations

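Kallikrein genes outside the list also had MEIS1 peaks; these were chosen after their values were seen. Within 10 kb of the 15 kallikrein genes there were 8 LV-MEIS1 and 2 HOXB13ko-LV-MEIS1 peaks. The strongest, in an intron of the pseudogene KLKP1 34.8 kb beyond the KLK3 start site, had a fold enrichment of 12.7 in LV-MEIS1 cells and no HOXB13ko-LV-MEIS1 counterpart. KLK15 had LV-MEIS1 peaks with 6.16 and 9.80, and the second, at chr19:50842031-50842547, was found in HOXB13ko-LV-MEIS1 cells with 7.10. KLK13 had 1 LV-MEIS1 peak with 7.74.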
